A study of Mus musculus with 24 samples.

Results

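The cytochrome P450 genes outside steroid synthesis were examined in RNA of mouse adrenal glands measured on 24 one-colour Agilent arrays. They were taken as all gene names of the array that read Cyp, digits, a letter and digits, without the 7 genes of steroid hormone and cholesterol synthesis (Cyp11a1, Cyp11b1, Cyp11b2, Cyp17a1, Cyp19a1, Cyp21a1 and Cyp51). This gave 90 genes of 36414 gene names on the array. Of these, 64 had a probe that rose clearly over background on 3 or more arrays, as had 26370 features in all, and each gene was followed by its brightest such probe. The mice were C57BL/6, either WT or null for Kcnk3, which encodes the potassium leak channel TASK1, and there were 3 arrays in each of 8 groups. The groups were Kcnk3 null females given testosterone (F KO testo), WT females given testosterone (F WT testo), Kcnk3 null sham females (F KO sham), WT sham females (F WT sham), Kcnk3 null castrated males (M KO cast), WT castrated males (M WT cast), Kcnk3 null sham males (M KO sham) and WT sham males (M WT sham). The labels give neither the age of the mice nor how the null allele was made, and they do not say whether an array holds RNA of 1 animal, so p-values measure the spread between these arrays only.

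Cytochrome P450 enzymes are haem proteins that insert an oxygen atom into small lipophilic molecules, with electrons passed on from NADPH by P450 oxidoreductase in the endoplasmic reticulum or by the ferredoxin pair in mitochondria. The Cyp1, Cyp2 and Cyp3 families are known chiefly for the clearance of drugs and foreign chemicals in the liver, and the Cyp4 family for the hydroxylation of fatty acids. Smaller families activate or degrade vitamin D, retinoic acid and oxysterols. In the adrenal gland the family is best known for the steroid-making enzymes left out here.

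The stretches of probe printed here identify the 4 genes for which a difference passed the test, and 3 pairs of genes whose probes are nearly the same and therefore cannot be read apart with certainty. Each probe is 60 bases long, its position is given on mm9 as the array files annotate it, and exon and UTR annotation was not used here. The first 30 bases of the 4 probes, 5′ to 3′, are given in lower case. The Cyp2f2 probe lies at chr7:27918570-27918629 on the plus strand, the Cyp4f15 probe at chr17:32840088-32840147 on the plus strand, the Cyp4f18 probe at chr8:74512381-74512440 on the minus strand and the Cyp2s1 probe at chr7:26587495-26587554 on the minus strand.
Cyp2f2: aatgacgtgacaaaggtgaaatacccgtct
Cyp4f15: ctagttggtcttactctattgcccaataga
Cyp4f18: actctcctatccatccacccacctgtgcct
Cyp2s1: tagctgacctctttgtgacttgaaggttcc
Among the 2016 pairs of the 64 probes, 3 pairs matched at 40 or more bases when slid along each other without gaps. The Cyp2c67 and Cyp2c68 probes matched at 55 bases, the Cyp2a21-ps and Cyp2a4 probes at 52 and the Cyp4a10 and Cyp4a31 probes at 44. The aligned 30 bases with the most differences are shown with the differing bases in capitals.
Cyp2c67: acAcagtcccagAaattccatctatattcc
Cyp2c68: acCcagtcccagGaattccatctatattcc
Cyp2a21-ps: acACtgagtttcttgtcccAttgaGcctgg
Cyp2a4: acTAtgagtttcttgtcccGttgaTcctgg
Cyp4a10: atcttccctcctttctgcaataaagTtccC
Cyp4a31: atcttccctcctttctgcaataaagGtccA
The Cyp2c67 and Cyp2c68 probes lie at chr19:39683429-39683488 and chr19:39763420-39763479, both on the minus strand. The Cyp2a21-ps and Cyp2a4 probes lie at chr7:27737339-27737398 and chr7:27099880-27099939, and the Cyp4a10 and Cyp4a31 probes at chr4:115206200-115206259 and chr4:115251553-115251612, all on the plus strand.

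All values below are log2 signals relative to the 75th percentile of their array, so that 0 is the level of that percentile and a step of 1 is a doubling; levels of different probes are not comparable. Between 57.0% and 64.7% of spots lay well above background, no spot outside the controls was saturated, and RNA integrity numbers were 3 to 9. Kcnk3 read 2.10 to 4.97 in KO arrays and 5.01 to 6.47 in WT arrays, and whether its probe lies in the deleted part is not given in the sources used here. Sex-linked signal went against the label on 9 arrays: the Y-linked Ddx3y and Eif2s3y read 19.3% to 45.5% of the M WT sham level on F WT sham arrays 2 and 3 and on all 3 F WT testo arrays, and Xist read 17.5% to 58.2% of the F KO sham level on arrays 1 and 2 of M KO sham and of M KO cast. The adrenal cortex list (8 of 8 markers measured) kept a summed log2 signal of 10.2 to 11.2 on every array. The hepatocyte list (15 of 15 measured) summed to 10.8 on F KO testo array 1 and 10.1 on M WT sham array 3, against 5.16 to 6.79 on the other 22 arrays, and Alb, the albumin gene, read 8.30 and 7.39 there, against -7.59 to 1.26. In whole glands, fewer cells of a type and less RNA per cell cannot be told apart.

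A large share of the P450 genes went with the liver transcripts of those 2 arrays. By the rule used, a gene followed Alb when it read at least 1 above the mean of the other arrays of its group on each of the 2 arrays, and 33 of the 64 genes did so. Of these, 30 had their highest values of the 24 arrays on exactly these 2. The rule used these values, so they are a description and carry no test. Among the genes of drug metabolism 26 of 31 followed Alb, among those of fatty acids 5 of 18, among those of oxysterols 1 of 4, and among pseudogene symbols 1 of 4. None of the 3 vitamin D genes, the 1 retinoic acid gene and the 3 genes without a settled substrate did.

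Cyp2c54, an arachidonic acid epoxygenase of mouse liver, read 4.02 on F KO testo array 1 and 2.77 on M WT sham array 3. The other arrays of these groups were not well above background, and against the lowest signal that would have been, the excess was at least 9.25 and 8.04. For Cyp2c50 it was at least 9.53 and 7.91, and for Cyp2a12, a hepatic steroid hydroxylase, at least 8.22 and 7.69. Cyp2d26 was well above background throughout and stood 8.50 and 8.13 above the other arrays of its groups. Cyp2c29, Cyp2c39, Cyp2c68, Cyp2d10, Cyp2d34 and Cyp2c67 were raised by at least 6.12 on each of the 2 arrays. On the other 22 arrays these genes were dim, with highest values there of -3.95 for Cyp2c54, -4.23 for Cyp2c50 and -2.40 for Cyp2d26. Just inside the threshold lay Cyp2d22 (1.11 on the array with the smaller excess) and Cyp2d13 (1.18), and just outside it Cyp1a1 (0.97) and Cyp2j13 (0.84).

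**Figure D1:**
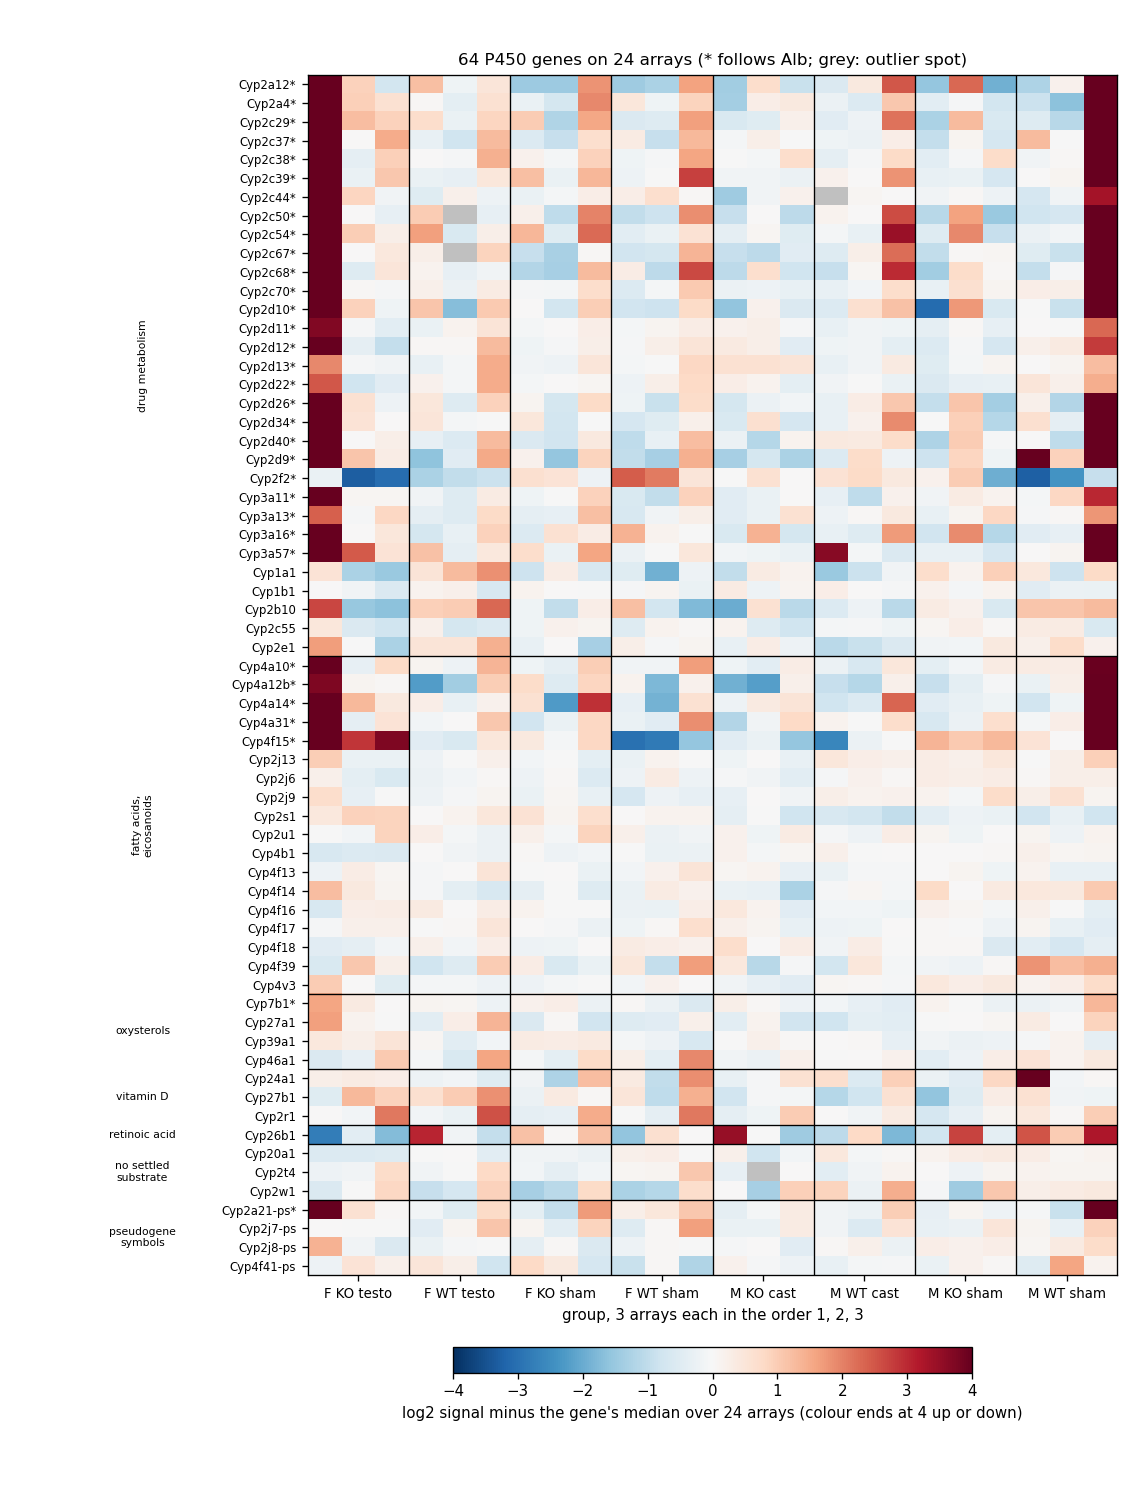
Log2 signal of 64 P450 genes (rows, by role) on 24 arrays (columns, by group), each minus the median of its gene over the 24 arrays. Columns F KO testo 1 and M WT sham 3 are dark red for most genes marked with an asterisk, the 33 that follow Alb, while most genes without one vary little.

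The 2 arrays did not carry the hepatic P450 signals at the same levels. The female array exceeded the male one by a median of 0.92 over the 15 hepatocyte markers and by a median of 1.40 over the 33 genes, and it was the higher array for 32 of the 33. For 9 genes the gap was over 2. Cyp2a4, a testosterone 15-alpha-hydroxylase known to be higher in female mouse liver, read 4.86 on the F KO testo array and 0.42 on the M WT sham array, and the near-identical Cyp2a21-ps probe read 4.62 and 0.00. Cyp3a11, the main inducible CYP3A enzyme of mouse liver, read 2.96 and -1.14, and Cyp3a16 read 2.42 and -1.20. The fatty acid omega-hydroxylase gene Cyp4a14 read 4.89 and 1.06. Cyp4a12b, of a subfamily known to be higher in male mouse liver, was the exception, at -1.57 on the F KO testo array and -0.83 on the M WT sham array. Cyp2d9, which is male-biased in liver too, was nevertheless higher on the F KO testo array, at 1.91 against 0.39. These are 2 arrays of different sex, genotype and treatment, so the gaps have no replicate.

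**Figure D2:**
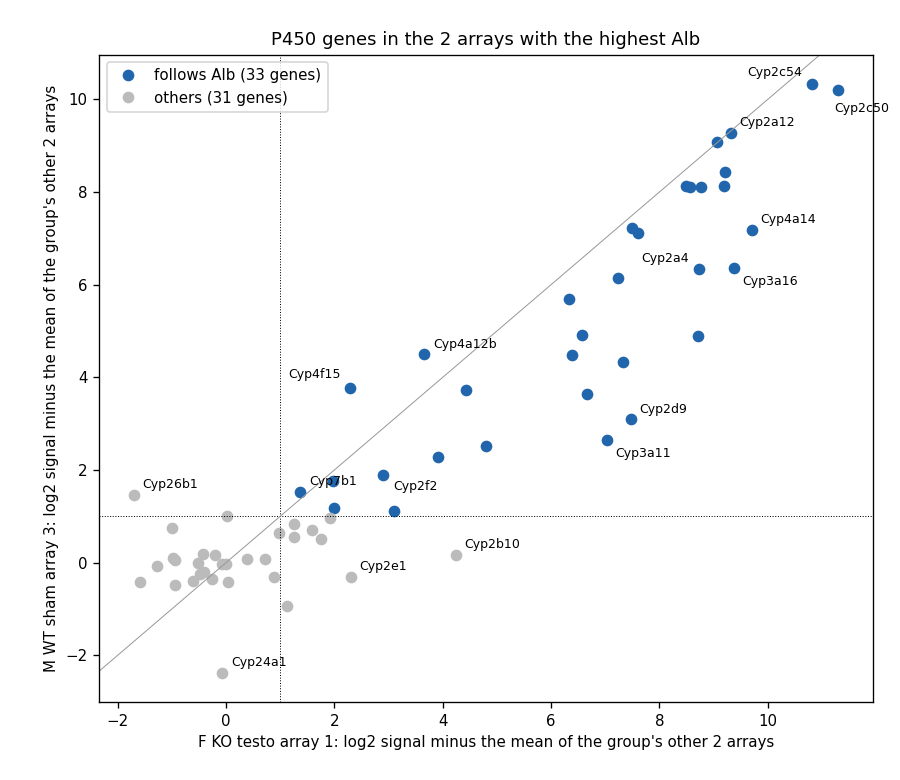
Excess of each of the 64 P450 genes over the other arrays of its group on F KO testo array 1 (x axis, log2) and on M WT sham array 3 (y axis, log2), with dotted lines at 1 and a grey line of equal excess. Excesses are plotted as measured, so those over arrays not well above background, as for Cyp2c54 and Cyp2c50 at the upper right, are not exact, and Cyp2b10 and Cyp2e1 are raised on the female array only.

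Not every hepatic P450 gene behaved in this way. Cyp2e1, the ethanol-inducible P450 that is abundant in liver, was well above background on all 24 arrays and read 7.27 on F KO testo array 1 but 5.77 on M WT sham array 3, below the 5.82 and 6.35 of the other M WT sham arrays. Cyp2b10, the phenobarbital-inducible enzyme, likewise read 1.32 on the F KO testo array, against -2.86 and -3.0 on the others of that group, and -0.08 on the M WT sham array, against -0.25 and -0.25. Cyp2f2, Cyp4f15 and Cyp7b1 met the rule but had measurable signal elsewhere too. Of the other 22 arrays, 15 of the 33 genes were well above background on 21 or 22, and 8 genes on fewer than 6.

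Cyp2f2, the monooxygenase known from mouse lung club cells, where it activates naphthalene, varied over several units between groups and was well above background on all 24 arrays. It read 4.45, 1.43 and 1.66 on F KO testo arrays, against 3.44, 3.73 and 3.88 on F WT testo arrays. It read 5.38, 5.28 and 4.53 on F KO sham arrays, against 7.13, 6.79 and 5.21 on F WT sham arrays. Among males it read 4.72, 5.33 and 4.72 on M KO cast arrays, 5.31, 5.48 and 5.11 on M WT cast arrays, 4.88, 5.75 and 2.77 on M KO sham arrays and 1.47, 2.34 and 3.79 on M WT sham arrays. F WT sham arrays were the highest and M WT sham arrays and F KO testo arrays the lowest, and the third value of M WT sham and the first of F KO testo are those of the arrays with high Alb. F WT sham and M WT sham arrays did not overlap.

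The lowest Cyp2f2 values lay on arrays with the lowest signal of the markers of the X-zone, an inner layer of the mouse adrenal cortex that is present in young and in female mice. The X-zone list (2 of 2 measured, Akr1c18 and Pik3c2g) had a summed log2 signal of -3.83 to -3.05 on 7 arrays: the 3 of M WT sham, array 3 of M KO sham and the 3 of F KO testo. On these 7, Cyp2f2 read 1.43 to 4.45, and 1.43 to 2.77 on the 5 of them without high Alb. On the other 17 arrays the list summed to 2.87 to 8.55 and Cyp2f2 read 3.44 to 7.13. Among these 17, Cyp2f2 and the list did not always go in step. F WT testo arrays, with sums of 5.85 to 6.77, read 3.44 to 3.88 for Cyp2f2. F KO sham array 3, with the sum of 2.87, read 4.53. M KO sham arrays 1 and 2, with Cyp2f2 at 4.88 and 5.75, are 2 of the arrays with Xist signal. The part of X-zone cells in the Cyp2f2 values was not tested.

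**Figure D3:**
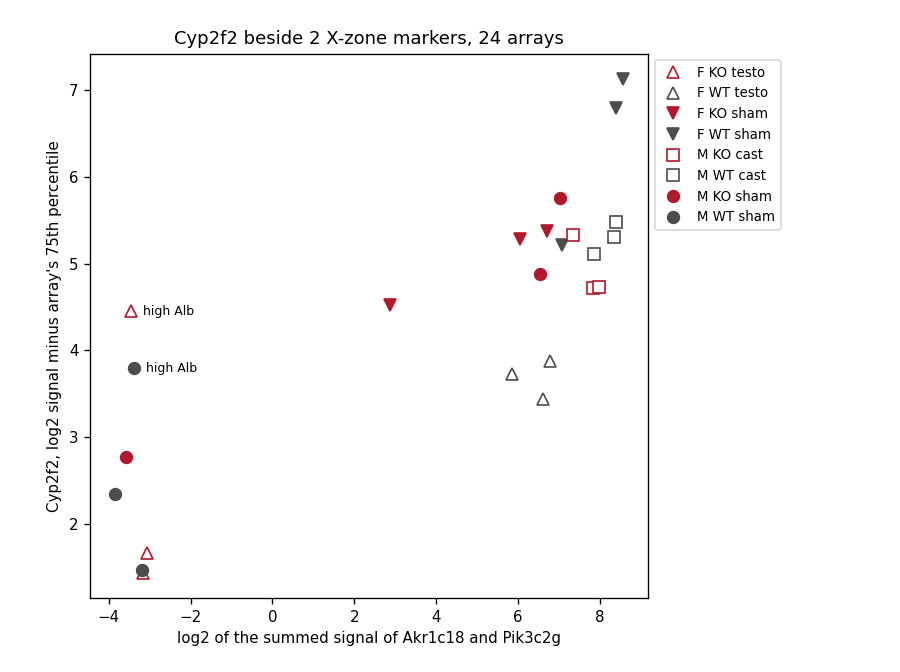
Cyp2f2 (y axis, log2 signal relative to the 75th percentile of the array) against the log2 summed signal of the X-zone markers Akr1c18 and Pik3c2g (x axis) on 24 arrays, by group. The arrays fall into 2 clusters, 7 with summed signal under -3 and 17 above 2, and the 2 arrays with high Alb lie above the others of the lower cluster.

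Cyp4f15, a fatty acid and eicosanoid hydroxylase gene that is also active in liver, was higher in KO than in WT arrays of both female pairs. It read 1.06, -1.67 and -0.80 on F KO testo arrays, against -4.98, -5.13 and -4.07 on F WT testo arrays. It read -4.15, -4.62 and -3.71 on F KO sham arrays, while the -7.53, -7.36 and -6.10 of F WT sham arrays were not well above background. It read -4.99, -4.81 and -6.07 on M KO cast arrays, -7.14, -4.78 and -4.55 on M WT cast arrays, -3.18, -3.50 and -3.25 on M KO sham arrays and -4.0, -4.52 and -0.48 on M WT sham arrays. KO and WT arrays were apart in both female pairs and overlapped in both male pairs. The 1.06 is that of the F KO testo array with high Alb, and the -0.48 that of the M WT sham array with high Alb.

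Of the 13 fatty acid and eicosanoid genes that did not follow Alb, 10 had group means that spanned less than 1. Over all roles this held for 18 of 31 such genes, with a median span of 0.73 and a median SD within groups of 0.26. Cyp2s1, an epithelial P450 that acts on lipid mediators and retinoids, read 0.72, 1.21 and 1.18 on F KO testo arrays and 0.30, 0.44 and 0.74 on F WT testo arrays. It read 0.86, 0.42 and 0.95 on F KO sham arrays and 0.30, 0.44 and 0.42 on F WT sham arrays. It read -0.06, 0.29 and -0.51 on M KO cast arrays, -0.35, -0.45 and -0.68 on M WT cast arrays, -0.13, 0.09 and 0.03 on M KO sham arrays and -0.48, 0.00 and -0.49 on M WT sham arrays. All female arrays lay above 0.29 and all male arrays below it or at it, and in each of the 4 pairs the KO mean was above the WT mean.

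Cyp4b1, a fatty acid and xenobiotic hydroxylase, varied little except in 1 group. It read 0.77, 0.87 and 0.83 on F KO testo arrays, below every other array, against 1.44, 1.28 and 1.19 on F WT testo arrays and 1.47, 1.22 and 1.30 on F KO sham arrays. On the remaining 15 arrays it read 1.17 to 1.61. Cyp4f18, a leukotriene hydroxylase of white blood cells, read 1.84, 1.78 and 1.69 on F WT sham arrays, against 1.11, 0.85 and 1.15 on M WT sham arrays, and these groups did not overlap. The macrophage list (3 of 3 measured) summed to 4.00 to 4.89 on F WT sham arrays and to 3.74 to 3.84 on M WT sham arrays, and its part in the Cyp4f18 values was not tested. Its members Csf1r, the brightest, and Cd68 were higher on all F WT sham arrays than on M WT sham arrays. The third, Emr1, overlapped, at 2.31, 0.12 and -0.04 on F WT sham arrays and 0.08, 0.19 and 0.67 on M WT sham arrays. Cyp2u1, a long-chain fatty acid hydroxylase, kept to 5.62 to 6.76 over the 24 arrays.

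**Figure D4:**
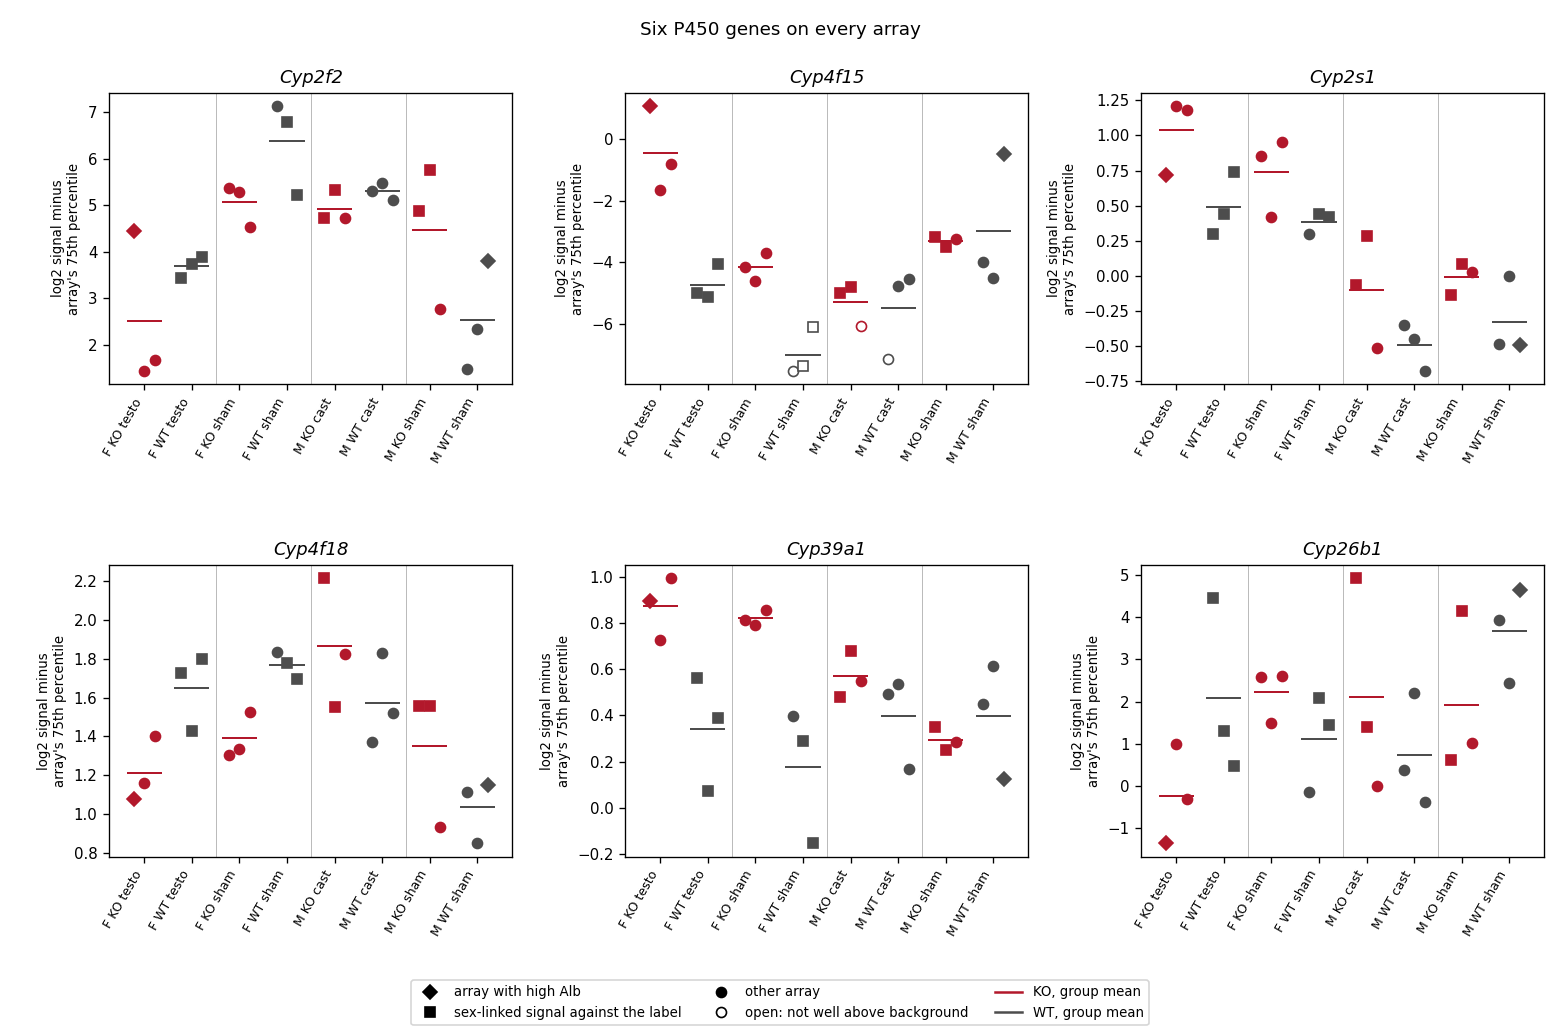
Log2 signal of 6 P450 genes on every array (y axis) by group (x axis), with a line at each group mean, n = 3. Cyp4f15 is lowest on F WT sham arrays and highest on F KO testo arrays, Cyp2s1 is higher on female than on male arrays, and Cyp26b1 spreads over several units within groups.

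Among the oxysterol genes, Cyp39a1, the 24-hydroxycholesterol 7-alpha-hydroxylase, read 0.81, 0.79 and 0.86 on F KO sham arrays and 0.40, 0.29 and -0.16 on F WT sham arrays. It read 0.90, 0.73 and 1.00 on F KO testo arrays and 0.56, 0.07 and 0.39 on F WT testo arrays, so that KO and WT arrays were apart in both female pairs. In males it read 0.48, 0.68 and 0.55 on M KO cast arrays, 0.49, 0.54 and 0.17 on M WT cast arrays, 0.35, 0.25 and 0.29 on M KO sham arrays and 0.45, 0.62 and 0.13 on M WT sham arrays, with overlap in both pairs. Cyp7b1, the 25- and 27-hydroxycholesterol 7-alpha-hydroxylase, read 0.99 and 0.75 on the arrays with high Alb and -1.17 to -0.21 on the other 22. Cyp46a1, the cholesterol 24-hydroxylase known from neurons, read highest on the female arrays numbered 3, at -2.33 for F KO testo, -1.81 for F WT testo, -2.62 for F KO sham and -1.48 for F WT sham.

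Of the vitamin D genes, Cyp2r1, a vitamin D 25-hydroxylase, was measured on all arrays and showed the same arrays as outlying. It read 2.79 on F KO testo array 3, 3.21 on F WT testo array 3, 2.17 on F KO sham array 3 and 2.80 on F WT sham array 3, and -0.00 to 1.67 on the other 20. These 4 arrays had RNA integrity numbers of 5, 3, 7 and 3 and lay on slides 3 and 4, and the part of RNA integrity or slide in these values was not tested. Cyp27b1, the 1-alpha-hydroxylase that makes active vitamin D, was well above background on 6 arrays. Cyp24a1, which degrades vitamin D, was so on 4, and it read -1.54 on M WT sham array 1, against -6.64 and -6.46 on the others of that group.

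Cyp26b1, the retinoic acid hydroxylase, spread over several units within groups. It read -1.36, 0.99 and -0.31 on F KO testo arrays, 4.46, 1.29 and 0.48 on F WT testo arrays, 2.58, 1.48 and 2.61 on F KO sham arrays and -0.15, 2.08 and 1.44 on F WT sham arrays. It read 4.92, 1.40 and -0.00 on M KO cast arrays, 0.38, 2.21 and -0.37 on M WT cast arrays, 0.62, 4.14 and 1.02 on M KO sham arrays and 3.93, 2.44 and 4.65 on M WT sham arrays. Single arrays of 4 groups stood above 4, and most groups overlapped.

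Within each role the genes at the ends of the range of group means were as follows. Of the genes of drug metabolism, Cyp1b1, an aryl hydrocarbon-inducible P450 of steroid-making and other tissues, varied least, with group means of 1.68 in M WT sham to 2.07 in M KO cast, a span of 0.39. Cyp2d9 had the largest measured span, up to the M WT sham mean of -1.67, but it was not well above background on any array of 4 groups, so the span has no exact size. Of the fatty acid genes, Cyp4f13 varied least, over 0.35, and Cyp4f15 had the largest measured span, from an F KO testo mean of -0.47 down to F WT sham arrays that were not well above background.

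Of the oxysterol genes, Cyp39a1 spanned 0.70, and Cyp27a1, the mitochondrial sterol 27-hydroxylase, spanned 1.13, with its highest group mean of -2.70 in F KO testo and its lowest of -3.83 in M WT cast. Cyp27a1 did not meet the rule for following Alb. It read -1.64 on F KO testo array 1, which had high Alb, against a mean of -3.23 on the other arrays of that group. Of the genes without a settled substrate, Cyp2t4 spanned 0.62, and Cyp2w1, a P450 known from fetal gut and colon tumours, was well above background on only 3 arrays. Of the vitamin D genes, Cyp2r1 spanned 1.01, and Cyp24a1 was well above background on too few arrays for a span. Of the pseudogene symbols, Cyp2j7-ps spanned 0.45 and Cyp2a21-ps 3.37. Cyp2d9, Cyp2a21-ps and Cyp4f15 were among the genes that followed Alb.

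Genotype in each pair of groups was tested over all features with limma, a linear model that shares the spread between features, with Benjamini-Hochberg adjustment over the 26370 features, and a gene was called at an adjusted p under 0.05. In none of the 4 single pairs was a P450 gene called, while Cyp4f15 and Cyp2s1 were called as higher in KO over the 4 pairs together. In M sham, limma called 0 of 64 (3 at an unadjusted p under 0.05), against 0.0303% of all features, in M cast 0 (0 unadjusted) against 0.777%, in F sham 0 (3 unadjusted) against 0.675%, and in F testo 0 (7 unadjusted) against 0.0379%. The median difference of the 64 genes was -0.86 in M sham, -0.15 in M cast, -0.10 in F sham and 0.53 in F testo, and that of all features -0.02, 0.00, -0.02 and -0.02. The 31 genes that did not follow Alb had medians of -0.11, -0.01, -0.18 and -0.04 in the same 4 pairs. The medians of the 33 that did were -1.94, -0.37, -0.03 and 2.70, but these genes were chosen for high values on an M WT sham and an F KO testo array. This choice favours a negative sign in M sham and a positive one in F testo.

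In the female pairs the members with the smallest p, none of them called, were Cyp4f15, Cyp39a1, Cyp4b1, Cyp1a1, Cyp2t4 and Cyp4f18. In F testo Cyp4f15 differed by 4.26 (SE 0.88, limma adjusted p = 0.107), by 3.49 without the 2 arrays with high Alb (adjusted p = 0.0649), and KO and WT arrays did not overlap. In F sham the Cyp4f15 level was at least 2.35-fold higher in KO (limma adjusted p = 0.188), where this bound sets the KO mean against the lowest signals well above background on the WT arrays, and without the 2 arrays, neither of them in this pair, the adjusted p was 0.0271, the only P450 call for this pair in that fit, against 0.903% of all features. Cyp39a1 differed by 0.64 in F sham (SE 0.17, limma adjusted p = 0.0925) and by 0.53 in F testo (adjusted p = 0.284), and Cyp4b1 by -0.48 in F testo (SE 0.11, adjusted p = 0.157). Cyp1a1, the aryl hydrocarbon hydroxylase, differed by -1.94 in F testo (adjusted p = 0.282) with overlap, the KO arrays being at -4.06, -5.87 and -6.10, the last 2 not well above background, and the WT arrays at -4.09, -3.36 and -2.78. All F WT testo arrays had Y-linked signal, so these F testo values cannot be given without such arrays. In F sham, Cyp2t4, of no settled substrate, differed by -0.62 and Cyp4f18 by -0.38, at adjusted p = 0.482 and 0.526 in limma.

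In the male pairs none was called either. In M sham the members with the smallest p were Cyp2d9, a male-biased hepatic testosterone 16-alpha-hydroxylase, Cyp4f39, Cyp2f2 and Cyp2c37, each with a limma adjusted p of 0.999. The Cyp2d9 difference of -4.63 was -3.60 without the 2 arrays with high Alb, and it then rested on M WT sham array 1 at -0.06, against -5.35 on array 2, with M KO sham arrays at -7.10, -5.39 and -6.43, of which only the second was well above background. The kidney list (4 of 6 measured) summed to -1.85 on that M WT sham array 1 and to -2.64 to -0.03 over all arrays. Its members on that array were Aqp2 at -2.42, the highest value of the male arrays, Slc34a1 at -4.11, Lrp2 at -5.25 and Kap at -7.32. The part of kidney RNA in the Cyp2d9 values was not tested. Cyp2f2 differed by 1.93 with overlap and by 0.24 without the arrays of sex-linked signal, and Cyp2c37 by -2.77, or -1.13 without the arrays of high Alb. Cyp4f39, a fatty acid hydroxylase known from skin, was not well above background on any M KO sham array. In M cast the members were Cyp4f14 (-0.59), Cyp2s1 (0.40), Cyp20a1 (-0.37) and Cyp2j13 (-0.45), with limma adjusted p of 0.743 to 0.888, and without the arrays of sex-linked signal Cyp2s1 differed by -0.02.

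Over the mean of the 4 pairs, limma called 2 of 64 genes, both higher in KO, against 2.84% of all features and 1.5% of them as higher. Cyp4f15 had a fitted difference of 1.75 (SE 0.44, adjusted p = 0.0378), which includes F WT sham arrays not well above background, and of 1.87 without the 2 arrays with high Alb (adjusted p = 0.00339), where Cyp2s1 was called too, 2 genes against 3.22% of all features. On single slides the KO array was higher in 7 of 10 pairs, and the differences ran from -2.77, on the slide with the M WT sham array of high Alb, to 6.05, on the slide with the F KO testo array of high Alb; a fit with slides as blocks gave 1.82 (adjusted p = 0.042). Normexp background correction with quantile normalization gave 0.70 (adjusted p = 0.156) and the authors' deposited value table gave 0.86 (adjusted p = 0.109), and it was called under neither. Cyp2s1 was 1.32-fold higher in KO (0.40, SE 0.10, limma adjusted p = 0.0419), higher in 9 of 10 pairs within slides, from -0.02 to 0.77, and 0.45 in the fit with slides as blocks (adjusted p = 0.0278). Omission of 1 array ended the call of Cyp4f15 in 15 of 24 cases and that of Cyp2s1 in 19 of 24, with differences of 1.54 to 2.06 and of 0.36 to 0.46. Without the arrays of sex-linked signal the mean cannot be fitted, since no F WT testo array is left. Cyp39a1 (0.31, adjusted p = 0.0505) and Cyp20a1, an orphan P450 (-0.25, adjusted p = 0.215), came next in limma. Cyp39a1 was called under several alternatives, among them the deposited value table (adjusted p = 0.0233), but not with slides as blocks (adjusted p = 0.0693).

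**Figure D5:**
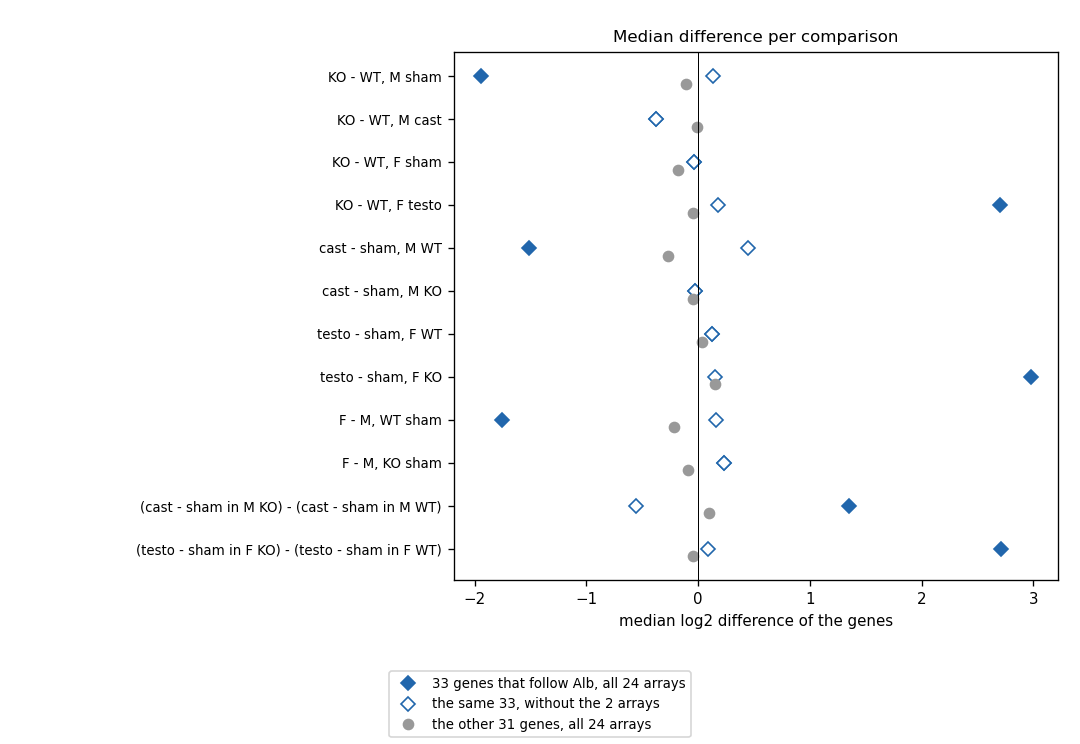
Median log2 difference of P450 genes (x axis) in the 10 comparisons of 2 groups and the 2 interactions (y axis), for the 33 genes that follow Alb with all 24 arrays (filled diamonds) and without the 2 arrays with high Alb (open diamonds), and for the other 31 genes (circles). The filled diamonds reach -1.94 in KO - WT, M sham and 2.98 in testo - sham, F KO, where the open ones are at 0.13 and 0.15; where neither array enters, filled and open coincide. Since the 33 genes were chosen on these 2 arrays, the gap between the diamonds is a description only.

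In castrated males no P450 gene was called. In M WT, limma called 0 of 64 genes (8 at an unadjusted p under 0.05), against 0.698% of all features, and in M KO 0 (6 unadjusted), against 1.27%. Medians over the 64 genes were -0.95 in M WT and -0.04 in M KO, against -0.04 and 0.00 over all features, and those of the 31 genes that did not follow Alb were -0.27 and -0.04. Cyp2f2 differed by 2.77 in M WT (SE 0.77, limma adjusted p = 0.15), with castrated and sham arrays apart, and by 3.40 without the 2 arrays with high Alb (adjusted p = 0.0202), the only P450 call for castration of M WT in that fit, against 0.66% of all features. The X-zone list summed to 7.84 to 8.38 on M WT cast arrays and to -3.83 to -3.19 on M WT sham arrays.

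The other members near the top were less even. Cyp2d9 was at least 14.1-fold lower in M WT cast than in M WT sham, a bound on the mean of 3 M WT sham arrays of which 2 measured it (limma adjusted p = 0.402). Without the arrays of high Alb, 1 of which is among those 2, the bound is 6.90-fold (adjusted p = 0.316). Cyp4f15 differed by -2.49 (limma adjusted p = 0.394), or by -1.23 without the arrays of high Alb (adjusted p = 0.62). Cyp4f18 differed by 0.53 in M WT and by 0.51 in M KO (limma adjusted p = 0.405 and 0.297). Cyp2e1 read 4.54, 4.73 and 5.02 on M WT cast arrays, against 5.82, 6.35 and 5.77 on M WT sham arrays, and its other probe gave a difference of -1.43 beside -1.22. Cyp2b10 read -1.90, -1.55 and -2.44 on M WT cast arrays, against -0.25, -0.25 and -0.08 on M WT sham arrays. The adipocyte list (6 of 6 measured) summed to 8.75 to 8.81 on M WT cast arrays and to 9.11 to 9.47 on M WT sham arrays, the hepatocyte list to 6.30 to 6.57 and to 6.71 to 10.1, and the red blood cell list (3 of 3 measured) to 6.24 to 7.02 and to 7.86 to 9.59, and their part in these values was not tested. Apart from M WT sham array 3, which had high Alb, these hepatocyte sums lay close to the signal of Trf alone. Trf read 6.68 and 6.63 on M WT sham arrays 1 and 2, against 6.37, 6.36 and 5.92 on M WT cast arrays. Alb did not follow the sum, at -1.16 and -4.03 on M WT sham arrays 1 and 2, against -2.25, -0.54 and 1.26 on M WT cast arrays. Cyp2e1 and Cyp2b10 were named after their values were seen, neither group pair overlapped, and of the 64 genes 15 (23.4%) had no overlap between M WT cast and M WT sham arrays, against 17% of all features. In M KO the smallest p belonged to Cyp4f14 (-0.99, SE 0.31, limma adjusted p = 0.165), the leukotriene B4 hydroxylase of mouse liver, followed by Cyp4f18, Cyp4v3 (-0.67, adjusted p = 0.297) and Cyp20a1 (-0.49, adjusted p = 0.369). Without the 2 arrays of high Alb, neither of which is in this comparison, Cyp4v3, a fatty acid omega-hydroxylase gene, had the same difference and an adjusted p of 0.0151, the only P450 call for this comparison in that fit, against 1.64% of all features.

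In testosterone-treated females no P450 gene was called in the main fit, which had all arrays, the normalization of the values above and no block. In F KO some alternatives, with and without a block, did call P450 genes. In F WT, limma called 0 of 64 genes (3 at an unadjusted p under 0.05), against 0.14% of all features, and in F KO 0 (6 unadjusted), against 0.269%. Medians over the 64 genes were 0.08 in F WT and 0.64 in F KO, against -0.02 and -0.02 over all features. Over the 31 genes that did not follow Alb they were 0.04 and 0.15.

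In both female genotypes the Cyp2f2 values were lower, and the Cyp4f15 values higher, on testosterone arrays than on sham arrays. Neither gene passed the test in the main fit. Cyp2f2 differed by -2.70 in F WT (SE 0.77, limma adjusted p = 0.258) and by -2.55 in F KO (adjusted p = 0.325), and the groups did not overlap in either. Without the 2 arrays of high Alb the F KO difference was -3.52 (adjusted p = 0.0309), the only P450 call for testosterone of F KO in that fit, against 0.281% of all features. The X-zone list summed to -3.45 to -3.05 on F KO testo arrays, against 2.87 to 6.71 on F KO sham arrays, and to 5.85 to 6.77 on F WT testo arrays, against 7.08 to 8.55 on F WT sham arrays. Cyp4f15 differed by 3.69 in F KO (SE 0.88, limma adjusted p = 0.114), or by 2.92 without the arrays of high Alb (adjusted p = 0.0804), and was at least 1.59-fold higher in F WT (adjusted p = 0.573). Cyp4b1 differed by -0.50 in F KO (SE 0.11, limma adjusted p = 0.075), a difference that was called with slides as blocks (adjusted p = 0.0135) and with the replicate block (adjusted p = 0.0218). Cyp4f14 differed by 0.89 in F KO (limma adjusted p = 0.46), or by 0.56 without the arrays of high Alb (adjusted p = 0.668). In F WT the further members were Cyp1a1 (2.07, limma adjusted p = 0.258) and Cyp2b10 (1.86, adjusted p = 0.801).

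Between the sexes, 3 P450 genes were called in WT sham glands, and none in KO sham glands. In WT, limma called Cyp2f2 and Cyp4f18 as higher and Cyp4f15 as lower in females, 3 of 64 genes against 2.55% of all features (1.54% higher and 1.02% lower). In KO it called 0 (5 at an unadjusted p under 0.05), against 1.02%. Medians over the 64 genes were -0.75 in WT and 0.06 in KO, and those of all features 0.01 and 0.03. Over the 31 genes that did not follow Alb they were -0.22 and -0.09.

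Cyp2f2 was 14.4-fold higher in F WT sham than in M WT sham (3.85, SE 0.77, limma adjusted p = 0.00984), and higher by 5.67 and 4.45 on the 2 slides that hold both groups. The difference was 4.47 without the arrays of high Alb (adjusted p = 0.00152), where 2 of 64 genes were called against 2.53% of all features. It was 3.90 when slides entered as blocks (adjusted p = 0.0156) and 4.60 without the arrays of sex-linked signal (adjusted p = 0.0648), which leaves 1 F WT sham array, assumed to vary like the other groups. Omission of M WT sham array 1 (3.31, adjusted p = 0.068) or of F WT sham array 1 (3.47, adjusted p = 0.0608) ended the call. The X-zone list, with sums of 7.08 to 8.55 on F WT sham arrays and of -3.83 to -3.19 on M WT sham arrays, moved with it.

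Cyp4f15 was at least 5.26-fold lower in F WT sham than in M WT sham (limma adjusted p = 0.0178), a bound that includes the M WT sham array of high Alb and is 2.19-fold without it, and the fitted difference of -4.0 was -2.74 without the arrays of high Alb (adjusted p = 0.0327). It was -3.53 and -2.84 on the 2 slides that hold both groups, and -4.15 when slides entered as blocks (adjusted p = 0.0186). Normexp correction with quantile normalization gave -1.30 (adjusted p = 0.227) and the authors' deposited value table gave -1.68 (adjusted p = 0.132), and without the arrays of sex-linked signal the value was -4.53 (adjusted p = 0.178). Omission of F WT sham array 1 (-3.73), F WT sham array 2 (-3.82) or M WT sham array 3 (-2.74) ended the call.

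Cyp4f18 was 1.66-fold higher in F WT sham (0.73, SE 0.19, limma adjusted p = 0.0495), its other probe gave 0.71, and the 2 slides gave 0.72 and 0.92. This call lay at the threshold: it was lost in the fit with slides as blocks (0.70, adjusted p = 0.0681), without the arrays of high Alb (0.79, adjusted p = 0.0714) and without those of sex-linked signal (0.80, adjusted p = 0.117), and in 17 of the 24 omissions of 1 array. Cyp2s1 was next (0.71, SE 0.21, limma adjusted p = 0.0825). In KO sham glands the members with the smallest p were Cyp2s1 (0.75, SE 0.21, limma adjusted p = 0.107), Cyp39a1 (0.53, adjusted p = 0.176), Cyp2j6, of the epoxygenase subfamily Cyp2j (-0.51, adjusted p = 0.319), and Cyp4f14 (-0.69, adjusted p = 0.429). The Cyp2s1 groups did not overlap in either genotype. Whether the sex difference itself differed between genotypes was not tested.

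The test of whether hormone treatment acted differently in the genotypes called no P450 gene. For castration, limma called 0 of 64 genes (1 at an unadjusted p under 0.05), against 0.0948% of all features, and the smallest p belonged to Cyp2f2, with an interaction of -2.31 (KO minus WT, SE 1.09, adjusted p = 1), or -0.81 without the arrays of sex-linked signal. Cyp26b1 (3.11, SE 1.75), Cyp2d13 (1.21) and Cyp4f39, which was not well above background in 3 of the 4 groups and is given without a size, followed at the same adjusted p. For testosterone it called 0 (3 unadjusted), against 0.114%. The values here were -0.55 for Cyp4b1 (SE 0.16, limma adjusted p = 0.489) and 1.32 for Cyp4f14 (adjusted p = 0.677), or 0.99 without the arrays of high Alb (adjusted p = 0.779). For Cyp1a1 the value was -2.41 (limma adjusted p = 0.81). Cyp1a1 was well above background only on 1 F KO testo, 3 F WT testo, 1 F KO sham and 2 F WT sham arrays, so this size is not exact. For Cyp26b1 the value was -3.41 (SE 1.75, limma adjusted p = 1).

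Genes that work with the P450s were measured beside them, 24 of 26 on the list. In F WT sham against M WT sham 4 of the 24 were called, against 2.55% of all features: Por, the oxidoreductase that supplies microsomal P450s with electrons, rose by 0.85 (SE 0.17, limma adjusted p = 0.0105) and Rxra, a nuclear receptor partner, by 0.93 (adjusted p = 0.0313), while Ahrr, the repressor of the aryl hydrocarbon receptor, differed by -1.10 (adjusted p = 0.00328) and Vdr, the vitamin D receptor, by -1.53 (adjusted p = 0.00339). Por and Ahrr remained called without the arrays of high Alb (limma adjusted p = 0.0231 and 0.0099) and without those of sex-linked signal (0.0373 and 0.0403). Rxra was called in neither case (0.086 and 0.143), and Vdr only in the first (0.0169 and 0.0774). Vdr also fell by 1.79 in F KO sham against M KO sham (adjusted p = 0.00213) and by 1.44 in M KO cast against M KO sham (adjusted p = 0.0078), where Ahrr fell by 0.84 (adjusted p = 0.0343), and without the arrays of sex-linked signal these 3 calls were lost (adjusted p of 0.233, 0.771 and 0.765). For genotype, Ephx1, the microsomal epoxide hydrolase, rose by 0.86 in M cast (limma adjusted p = 0.0255), or by 0.60 without the arrays of sex-linked signal (adjusted p = 0.999), and Ptgis, the prostacyclin synthase and itself a P450 with another name, rose by 0.51 over the 4 pairs (adjusted p = 0.0397). The share of all features called was 1.02% in F - M of KO sham, 1.27% in castration of M KO, 0.777% in KO - WT of M cast and 2.84% over the 4 pairs. No gene of the list was called in the other comparisons.

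The 26 genes without a probe well above background on 3 arrays include Cyp1a2, a major drug-metabolizing P450 of liver, Cyp7a1 and Cyp8b1, enzymes of bile acid synthesis, the retinoic acid hydroxylases Cyp26a1 and Cyp26c1, and 13 genes of drug metabolism in all. They also include Cyp4a12a, Cyp4x1, Cyp2j5 and 3 pseudogene symbols. Of the 26, 14 were well above background on 2 arrays, among them Cyp1a2, Cyp7a1, Cyp8b1, Cyp26a1, Cyp4a12a and Cyp2j5, 2 on 1 array and 10 on none. No comparison was made for them.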

How the data were processed

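Adrenal RNA of mice was hybridised to 24 arrays, 3 in each of 8 groups taken from the labels. Per the file headers, the authors scanned 1-colour (Cy3) arrays and extracted them with Agilent Feature Extraction, and the deposited intensities used here are its processed signals, with the background subtracted. The authors also deposited a table of log2 values, which is quantile normalized to judge by its nearly equal distributions, while its scale and centring are not given in the sources used here. It served as an alternative. Each array's log2 processed signal was set against the 75th percentile of that array, outlier spots were left out (4 values of 4 P450 genes were missing for this reason, Cyp2c50 and Cyp2c67 on F WT testo array 2, Cyp2t4 on M KO cast array 2 and Cyp2c44 on M WT cast array 1), and spots of a probe were averaged. Per gene name, the brightest probe well above background on at least 3 arrays was kept, and 1 probe whose name (Cyp4a29) and accession disagreed was kept under its probe identifier, outside the family.

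A linear model of 8 group means was fitted over 26370 features with limma 3.58.1 in R 4.3.3 (16 residual degrees of freedom), with 13 comparisons and Benjamini-Hochberg adjustment within each, a threshold of 0.05, and a check on simulated data. Fold bounds for probes not well above background on every array of a group set the brighter mean against the higher, per array, of the lowest signal well above background and the probe's own. Figures were drawn with matplotlib 3.10.9. The members and lists were chosen with earlier results of these data known. Named are all called genes and, where fewer than 4 were called, those with the smallest p to make 4, the genes that follow Alb with the largest excess (up to 10), role members at the ends of the range of group means, and companions that were called. Deviations from the group means correlated at 0.231 on average between same-numbered arrays (-0.3995 to 0.693) and at -0.111 between others, and since not every pair was over 0.1, numbers were not treated as pairs. Slides 1 and 2 held all 8 groups, slide 3 held 6 and slide 4 held 2 arrays. Alternatives were other background corrections and normalizations, the deposited log2 table, other filters, slide, replicate number or RNA integrity in the model, omission of slide 4 and of each array, and, chosen after seeing the data, omission of the 2 arrays with high Alb or of the 9 with sex-linked signal against their label.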

Additional observations from a re-analysis of the deposited data

How the results depend on the processing

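Of the 1789 values of named genes recomputed with limma under all alternatives, 1693 kept their direction and their side of the threshold, 71 lost a call, 24 gained one and 1 changed sign, Cyp2s1 in KO - WT of M cast, which was -0.0202 without the arrays of sex-linked signal. The number of P450 genes called was 1, against 0 with all arrays, without the 2 arrays with high Alb in KO - WT of F sham, in castration of M WT and of M KO, and in testosterone of F KO. In testosterone of F KO it was 2 under normexp with quantile normalization, and 1 each under quantile normalization, the deposited value table, slides as blocks and the replicate block (Cyp4b1, -0.50, adjusted p = 0.0218), and with slides as blocks it was 1 in KO - WT of F testo. In F - M of WT sham it was 0, against 3, without the arrays of sex-linked signal, and over the 4 genotype pairs it was 0, against 2, with no filter on dim probes. The replicate block also brought Cyp39a1 over the 4 pairs to an adjusted p of 0.0305 and changed no other call of a named gene. Cyp39a1 was called there as well under normexp with quantile normalization (0.0244), quantile normalization (0.0481) and the deposited value table (0.0233). So it was with probes well above background on all arrays (0.04) and with RNA integrity in the model (0.0235). Omission of F WT sham array 1, F WT testo array 1 or M WT sham array 2 also gave the call. Slides as blocks (0.0693) and omission of the 2 arrays with high Alb (0.0961) did not. The cause of these shifts was not tested.

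With 1 array left out at a time, the count ran from 0 to 1 in KO - WT of F testo (1 without M WT sham array 3, Cyp4f15), from 0 to 1 in castration of M KO (1 without F KO testo array 1, Cyp4v3) and from 0 to 1 in testosterone of F KO (1 without F KO testo array 1, Cyp2f2, and 1 without M WT sham array 3, Cyp4f15). It ran from 0 to 4 in F - M of WT sham, with 0 without F WT sham array 1, 1 without M WT sham array 1, F WT sham array 2 or M WT sham array 3, and 4 without F KO testo array 1. Over the 4 genotype pairs it ran from 0 to 2. There Cyp4f15 (1.54 to 2.06) stayed called only without M WT cast 2 or 3, F KO sham 2, F KO testo 2 or 3, M WT sham 3, M KO cast 3, F WT sham 3 or F WT testo 3. Cyp2s1 (0.36 to 0.46) did so only without F KO testo 1, M WT sham 2, F KO sham 2, M KO cast 3 or F WT testo 3. Cyp4f18 in F - M of WT sham (0.63 to 0.79) did so only without M KO cast 1 or 2, F KO testo 1 or 3, M WT cast 2, M KO sham 3 or F WT testo 3. Of the 64 genes, 37 were well above background on all 24 arrays, and below it a dim probe such as that of Cyp4f15 gives bounds only.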
